A study of Mus musculus with 10 samples.

Results

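DNA methylation was compared between Dnmt3b-knockin and WT leukaemias of mice in which the MLL-AF9 oncogene drove the disease. The comparison used 6 of the 10 libraries of the study, 3 knockin and 3 WT, all made from c-kit+ leukaemic cells of the spleen by reduced representation bisulfite sequencing. In this assay the enzyme MspI cuts genomic DNA at CCGG, short CpG-rich fragments are kept, and bisulfite turns unmethylated cytosine into uracil, so that the share of reads still showing cytosine is the methylation level. CpGs on the 19 autosomes with 5 or more reads in all 6 libraries were summed in 1-kb windows, and 48226 windows with 3 or more such CpGs were tested. A window is called gained where the lowest knockin library lay 25 or more percentage points above the highest WT library, and lost where the highest knockin library lay 25 or more points below the lowest WT library. That rule was met by 112 gained windows, 0.232% of those tested, and by 2 lost windows, 0.00415%. These windows were chosen by their methylation difference, so the difference itself is described here without a test.

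Dnmt3b is a de novo DNA methyltransferase: it adds methyl groups to CpGs that carry none, unlike the maintenance enzyme Dnmt1, which copies methylation to the new strand after replication. In mammalian genomes most CpGs lie far apart and are highly methylated, whereas CpG islands, the dense stretches at many promoters, are largely unmethylated, and their flanks, the shores, lie in between. MLL-AF9 is a fusion of a histone methyltransferase with a transcriptional elongation factor that causes acute leukaemia and keeps HoxA genes active, and c-kit is a receptor of stem and progenitor cells. The design text gives the knockin as a tetracycline-inducible mouse model and the question as how Dnmt3b-mediated methylation affects leukaemia development. The labels do not give the inducer's dose or timing, the age of the mice, other alleles of the WT leukaemias, or whether replicates came from separate animals. The p-values therefore measure only the spread between these libraries, which may be technical. Neither c-kit nor Dnmt3b expression can be checked in methylation data. In the second model of the study, used below only to look up the same windows, leukaemic spleen cells carried the oncogenes cMyc and Bcl2, with 2 WT and 2 knockin libraries.

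The 6 MLL-AF9 libraries held 14446933 to 31805256 CpG read calls. Mitochondrial CpGs, a guide to incomplete conversion, read as methylated in 1.82%, 2.42% and 2.59% of calls in WT replicates 1 to 3. In knockin replicates 1 to 3 they did so in 2.57%, 3.20% and 2.01%. The smallest differences of mean level given below are less than this spread between libraries, and the part of conversion in them was not tested. Knockin replicate 1 stood apart on the sex chromosomes, with 1764 chromosome Y calls against 24 to 125 in the other MLL-AF9 libraries and a relative depth on chromosome X of 0.610 against 0.916 to 1.06. Only autosomes were compared. No pair of replicates agreed within sampling noise: the mean chi-square per window, 1 under sampling noise alone, was 3.53 to 4.75 over the 6 within-group pairs.

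4 of the promoters that gained methylation are shown first, since they span the WT levels from nearly unmethylated to intermediate. Each line is the 250 bases before the gene's start on the gene's strand, from RefSeq promoter sequences of GRCm38.p6, with every CpG in capitals. The positions are those of mm9, the build of the data, and were found by matching the spacing of the CpGs to the positions listed in the libraries. They are chr9:20619512-20619761 on the minus strand for Col5a3, a collagen chain, chr4:125839910-125840159 on the minus strand for Sh3d21, an SH3-domain protein, chr10:79217604-79217853 on the plus strand for Fgf22, a fibroblast growth factor, and chr12:85489440-85489689 on the minus strand for Pnma1, a neuronal antigen. These stretches hold 17, 25, 15 and 15 CpGs in the same order, and every promoter tested held at least 8 over its 300 bases, since placing needed that number.
Col5a3: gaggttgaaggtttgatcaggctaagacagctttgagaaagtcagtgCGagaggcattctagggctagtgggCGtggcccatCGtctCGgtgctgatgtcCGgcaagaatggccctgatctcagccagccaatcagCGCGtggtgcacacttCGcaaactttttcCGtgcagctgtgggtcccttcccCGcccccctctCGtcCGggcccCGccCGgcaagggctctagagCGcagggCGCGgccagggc
Sh3d21: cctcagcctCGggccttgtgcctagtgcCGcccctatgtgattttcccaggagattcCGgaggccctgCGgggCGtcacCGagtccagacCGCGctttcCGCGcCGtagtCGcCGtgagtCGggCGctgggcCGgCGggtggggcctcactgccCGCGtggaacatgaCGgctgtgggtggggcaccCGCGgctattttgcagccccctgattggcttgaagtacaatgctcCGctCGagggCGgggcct
Fgf22: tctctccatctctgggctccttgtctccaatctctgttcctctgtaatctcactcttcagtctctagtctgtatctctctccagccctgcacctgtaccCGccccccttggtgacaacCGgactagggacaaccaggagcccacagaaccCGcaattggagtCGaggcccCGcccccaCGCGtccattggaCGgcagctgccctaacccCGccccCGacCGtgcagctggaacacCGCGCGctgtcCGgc
Pnma1: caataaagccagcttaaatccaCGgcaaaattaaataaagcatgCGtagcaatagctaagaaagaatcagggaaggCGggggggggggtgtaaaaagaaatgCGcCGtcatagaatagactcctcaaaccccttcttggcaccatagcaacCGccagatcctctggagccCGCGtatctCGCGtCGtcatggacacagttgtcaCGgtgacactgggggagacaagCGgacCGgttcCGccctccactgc
WT levels of these 4 promoters averaged 2.67%, 2.71%, 24.1% and 47.5%, and knockin levels 19.96%, 30.3%, 75.5% and 93.9%. In the same order, they rest on 14, 14, 4 and 6 tested CpGs. These levels cover the 300 bases, which include the 50 after the start that are not printed. Most of the CpGs printed for Fgf22 were therefore not tested. For Pnma1 none of the printed CpGs was tested. The last tested CpG there was at 85489428, outside the printed stretch, so its 6 tested CpGs lie after the start. The values by library are given with the promoters below.

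Methylation over all tested windows was higher in every knockin library than in any WT library. The mean window level was 46.4%, 47.5% and 46.1% in WT replicates 1 to 3 and 51.3%, 50.8% and 49.4% in knockin replicates 1 to 3. The means were 46.7% ± 0.770 and 50.5% ± 0.991 (SD, n = 3 each), which put knockin 3.81 points higher (exact two-sided permutation test, p = 0.1, the smallest that 3 against 3 libraries can give). The size of this difference depended on which CpGs were kept: it was 1.53 points with 20 or more reads per CpG and 2.18 points with windows weighted by their CpGs. Without knockin replicate 1 it was 3.40 points.

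The gained windows went from mostly unmethylated to mostly methylated. Averaged over the 112 windows, WT replicates 1 to 3 stood at 28.3%, 27.8% and 25.03%, and knockin replicates 1 to 3 at 72.4%, 74.01% and 68.0%. The WT mean of single windows had a median of 25.8%, with quartiles of 14.7 and 35.9% and a range of 3.21 to 63.9%. The knockin mean had a median of 72.2% and exceeded 50% in 105 windows. In 77 windows every knockin library lay over 50% and every WT library under it. The difference of means ran from 30.9 to 73.9 points, with a median of 43.1. Knockin replicate 3 was the lowest knockin library in 58 windows, and replicate 2 the highest in 56. The windows held few CpGs, with a median of 4 tested CpGs over 86 bp and 51 reads in the shallowest library, against 5 CpGs and 65 reads over all tested windows. Of their 564 single CpGs, 499 (88.5%) had every knockin library above every WT library. The share was 5.83% of the 523858 CpGs in all tested windows. The rule had summed the reads of those 564 CpGs, so their high share follows largely from the choice of windows.

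**Figure D1:**
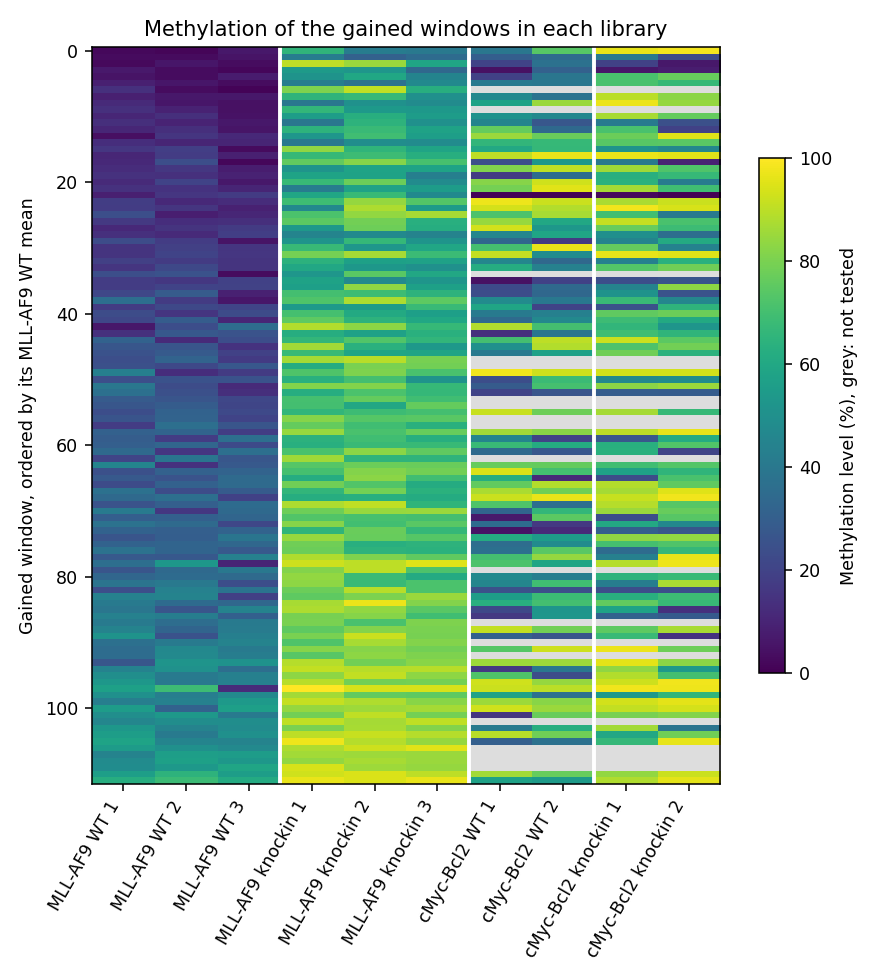
Methylation level in percent (colour) of the 112 gained windows (rows, ordered by their MLL-AF9 WT mean) in each library (columns), with grey for windows not tested in cMyc-Bcl2. The 3 MLL-AF9 knockin columns are brighter than the 3 WT columns in every row by the rule of choice, while cMyc-Bcl2 WT is often already bright, at a mean of 56.4% over 93 windows.

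How many windows are called depends on where the line is drawn. The knockin libraries all lay above the WT libraries, by any amount, in 9196 windows (19.1%) and below in 683 (1.42%). With groups that do not overlap and means 25 or more points apart, 922 windows were higher in knockin (1.91%) and 14 lower (0.029%). With a gap of 10 points between the nearest libraries the counts were 918 (1.9%) and 15 (0.0311%). Under each of these rules windows higher in knockin outnumbered those lower. The gain count fell to 63 with 10 reads per CpG, 11 with 20 reads and 42 with 5 CpGs per window. Leaving out a library eases the rule and admits more CpGs, and the count rose to 159, 152 and 269 without knockin replicates 1, 2 and 3 and to 291, 305 and 189 without WT replicates 1, 2 and 3. Just inside the 25-point line lay chr5:134885075-134885107 and chr15:78396372-78396507, with gaps of 25.04 and 25.2 points. Just outside lay chr3:51865045-51865135 and chr19:5570700-5570864, with gaps of 24.9 and 24.6 points.

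The widest gap was at chr8:73340803-73340879, where 9 CpGs were nearly unmethylated in WT. WT replicates 1 to 3 read 2.58%, 5.95% and 3.45%, and knockin replicates 1 to 3 read 90.1%, 84.8% and 58.7%, on 116 to 540 reads. The means were 3.99% ± 1.75 and 77.9% ± 16.8 (SD, n = 3 each). All 9 CpGs separated the groups, but their reads are the ones that the rule summed, so this is no separate support. Knockin replicate 3 was well below the other two knockin libraries, yet far above WT. The nearest placed promoter, that of the arrestin-domain gene Arrdc2, lay 22.8 kb away. At chr1:62842371-62842401, 92.5 kb after the start of the semaphorin receptor gene Nrp2, WT stood at 13.9%, 3.39% and 1.05% and knockin at 80.6%, 90.5% and 62.9%. At chr2:69509044-69509120, 23.9 kb after the start of Bbs5, a gene of the ciliary BBSome complex, WT stood at 24.1%, 8.49% and 10.6% and knockin at 71.6%, 83.7% and 86.6%. Here knockin replicate 3 was the highest library, so the lower mean of that library did not hold at every window. At chr13:20387628-20387685, 205 kb after the start of Elmo1, a regulator of Rac in cell migration, WT stood at 14.9%, 20.3% and 15.8% and knockin at 78.9%, 86.4% and 68.1%. At chr17:54142247-54142331, 314 kb from the nearest placed promoter, WT stood at 18.02%, 11.5% and 12.8% and knockin at 69.0%, 84.0% and 73.4%. At chr4:140835512-140835577, WT ranged more widely, at 11.5%, 24.1% and 1.69%, against 76.2%, 81.8% and 70.8% in knockin. In each of these 6 windows every WT library was under 25% and every knockin library over 50%. At chr9:65377605-65377698, 50.2 kb after the start of Plekho2, WT stood at 16.7%, 13.2% and 13.5% and knockin at 74.7%, 78.6% and 63.3%. The other 3 of the 10 widest gaps are described with the next sets.

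Only 20 tested windows that were not gained lay 1 kb from a gained window, so few gained windows had a tested neighbour. Gained windows formed 1 run of 2 neighbours, at chr5:110860611-110860986 and chr5:110861001-110861108, 16.7 and 16.5 kb after the start of Fbrsl1. Their CpGs lie close together on either side of a window edge. In the first, WT stood at 10.8%, 17.7% and 8.73% and knockin at 67.1%, 68.4% and 62.5%. In the second, WT stood at 23.9%, 31.9% and 17.1% and knockin at 86.5%, 89.2% and 79.4%. Over all gained windows, tested neighbours 1 kb away averaged 10.8 points higher in knockin, and 9 of these 20 neighbours (45%) had every knockin library above every WT library, against 18.8% of windows over 50 kb away. Neighbours 2 kb away averaged 1.86 points, with 1 of 19 separated in that way (5.26%), and those 3 to 5 kb away 4.49 points, with 16 of 48 (33.3%). Windows over 50 kb away averaged 3.70 points. These neighbour counts are small and were not tested. CpGs inside the gained windows that had been left out for low coverage gave a separate reading of the same libraries. Pooled over 1040 such CpGs, they stood at 37.2%, 31.6% and 35.0% in WT and 71.2%, 67.4% and 61.6% in knockin, a difference of 32.2 points. The same left-out CpGs of all tested windows differed by 4.33 points. They come from the same libraries and fragments nearby, so they are no independent replicate.

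Only 2 windows met the rule for loss. At chr6:67485401-67485471, with 10 tested CpGs, WT stood at 45.0%, 59.2% and 49.5% and knockin at 3.17%, 2.14% and 5.59%, on 216 to 698 reads. The mean fell by 47.6 points, and all 10 CpGs, whose reads the rule had summed, separated the groups. The nearest placed promoter, of the interleukin-12 receptor subunit gene Il12rb2, lay 159 kb away. At chr4:9801627-9801704, with 3 CpGs and 26 to 102 reads, WT stood at 52.8%, 80.6% and 53.8% and knockin at 5.88%, 24.2% and 26.5%. The first lies on chromosome 6, and leaving out chromosomes 6 and 11 left 1 lost window. The closest windows outside the rule, chr15:102504308-102504343 and chr2:11424500-11424591, had gaps of 15.0 and 14.7 points.

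A quasi-binomial model fitted to all windows called far fewer. With 10 points or more between means and an adjusted p below 0.05 it called 18 windows gained (0.0373%) and 1 lost (0.00207%). An unadjusted p under 0.05 was reached by 7095 windows, of which 6770 were higher in knockin. These calls were not stable: limma on M-values called 0 windows either way (6844 at an unadjusted p under 0.05), reads thinned to equal depth gave 0, and leaving out any 1 library left 0 or 1 (1 without knockin replicate 3). Of the gained windows 14 were among the calls, and of the lost windows 1, that on chromosome 6. The smallest adjusted p was 0.0242 at chr8:73122353-73122582, 4.09 kb after the start of the inositol-phosphate synthase gene Isyna1, where 19 CpGs stood at 62.3%, 68.1% and 61.1% in WT and 96.7%, 94.4% and 96.6% in knockin. That difference of 32.0 points was 19.8 points with 20 reads per CpG and 9.68 points when the window starts were shifted by 500 bp. The same adjusted p of 0.0242 was found at chr14:71041508-71041956, where WT stood at 18.9%, 17.2% and 15.0% and knockin at 64.4%, 56.8% and 57.3%. At chr2:30581246-30581401, with 17 CpGs, WT stood at 44.4%, 50.4% and 36.2% and knockin at 90.9%, 89.4% and 89.2%. In all, 4 calls lay outside the 25-point rule, and 2 of them, singled out after their values were seen, were dense windows. At chr8:94884054-94884320, 28 CpGs stood at 3.29%, 3.01% and 3.31% in WT and 15.9%, 17.0% and 13.5% in knockin, on 393 to 869 reads. At chr9:121748158-121748772, 0.114 kb after the start of Ccdc13, 42 CpGs stood at 14.8%, 15.9% and 12.9% in WT and 26.2%, 25.9% and 27.2% in knockin, on 808 to 1596 reads.

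Gained windows were poor in CpGs. Density was taken as the number of CpGs listed in a window in any of the 6 libraries, which does not use methylation, and a window of 60 or more was called dense. None of the 6306 dense windows was gained, although they made up 13.1% of those tested. Windows of under 20 listed CpGs held 88 of the 112 gained windows (78.6%, against 57.3% of tested windows), those of 20 to 39 held 22, and those of 40 to 59 held 2. A gained window had a median of 12 listed CpGs, against 16 over all tested windows. The mean level moved in the same order. In windows of under 20 listed CpGs it was 70.7% ± 0.807 in WT and 75.7% ± 1.00 in knockin (SD, n = 3 each), or 4.95 points higher. The difference was 3.61 points at 20 to 39, 1.73 points at 40 to 59 and 0.909 points in dense windows. In the 2 sparser classes every knockin library exceeded every WT library (exact permutation p = 0.1 each). In dense windows WT stood at 3.89%, 4.66% and 3.90% and knockin at 5.48%, 5.37% and 4.34%, so that knockin replicate 3 lay below WT replicate 2 (exact permutation p = 0.2). Relative to what was unmethylated in WT, the gain was 16.9% in the sparsest class and 0.949% in dense windows. The difference in dense windows less that in the sparsest windows was -4.04 points and held across all libraries (exact permutation p = 0.1, adjusted 0.129 over 9 such contrasts).

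By distance to a dense window, counted in 1-kb steps, the mean gain in points was largest a few kb away. Windows 1 to 2 kb from a dense window were higher in knockin by 2.87 points, those 3 to 10 kb away by 5.74 points, those 11 to 50 kb away by 4.94 points and those over 50 kb away by 3.97 points. Every knockin library exceeded every WT library in each of these classes (exact permutation p = 0.1 each, adjusted 0.106 over all classes). Their WT levels differed widely, at 12.8% within 2 kb, 49.3% at 3 to 10 kb, 54.3% at 11 to 50 kb and 60.1% beyond. Relative to what was unmethylated in WT, the gain was 3.29%, 11.3%, 10.8% and 9.95% in the same order, so it was more even beyond 2 kb. Gained windows made up 0.0961%, 0.501%, 0.387% and 0.211% of these 4 distance classes, or 4, 16, 42 and 50 windows. The difference 3 to 10 kb away exceeded that in dense windows by 4.83 points and that beyond 50 kb by 1.77 points, and the difference 1 to 2 kb away exceeded that in dense windows by 1.96 points (exact permutation p = 0.1 each, adjusted 0.129). The last of these was 0.674 points with 20 reads per CpG, and the step from 3 to 10 kb to 11 to 50 kb was not tested. Without knockin replicate 1 the difference in dense less that in the sparsest windows was -3.84 points, and that 1 to 2 kb away exceeded that in dense windows by 1.68 points. In the step from 0 to 5 kb the difference rose from 0.909 through 2.41, 5.67, 5.72 and 5.94 to 6.31 points, and it was 3.65 points beyond 100 kb. The farthest gained windows lay 388 kb away, at chr9:41544874-41544950 (5.13%, 3.33% and 7.69% in WT, 51.5%, 59.7% and 45.1% in knockin), and 380 kb away, at chr6:50840931-50840990 (31.0%, 32.1% and 18.3% in WT, 84.8%, 71.4% and 76.9% in knockin).

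**Figure D2:**
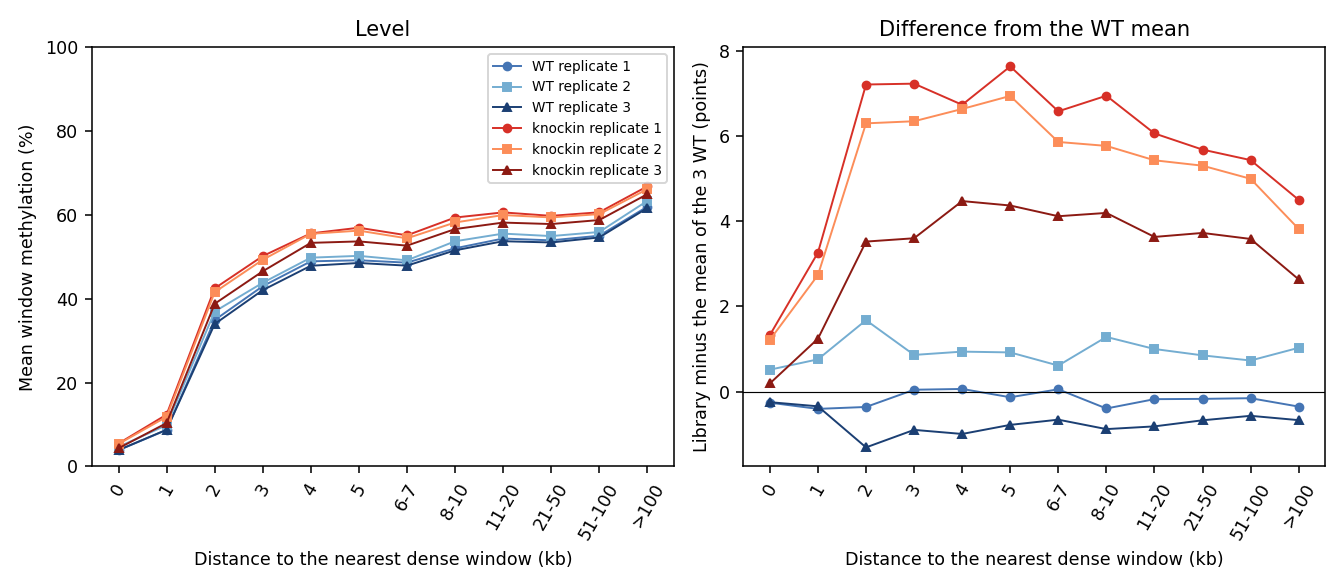
Mean window methylation in percent (left) and each library's difference from the mean of the 3 WT libraries in points (right), by distance to the nearest dense window in kb, 1 line per library. The differences are smallest at 0 kb (0.190 to 1.32 points for the knockin libraries) and reach 3.52 to 7.63 points from 2 to 10 kb, with knockin replicate 3 below the other 2 knockin libraries at every distance.

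Windows of intermediate WT methylation were the ones most often gained. The rule cannot be met where a WT library is above 75%, so the shares by WT level are descriptions. Of windows with a WT mean of 20 to 50%, 66 of 3335 were gained (1.98%), against 36 of 4788 at 5 to 20% (0.752%), 6 of 5317 at 50 to 80% (0.113%), 4 of 16406 under 5% (0.0244%) and 0 of 18380 at 80% or more. Within the 20 to 50% class the share fell with density, from 2.62% of windows with under 20 listed CpGs through 1.26% and 0.373% to 0 of 171 dense windows. A start level that uses no MLL-AF9 value was taken from the WT libraries of cMyc-Bcl2. By that level the knockin difference was 0.606 points under 5%, 4.92 points at 5 to 20%, 10.6 points at 20 to 50%, 8.87 points at 50 to 80% and 3.17 points at 80% or more (exact permutation p = 0.1 each). Relative to what was unmethylated in MLL-AF9 WT, the gain was 0.617%, 5.51%, 15.9%, 28.7% and 31.5% in the same order. The peak at intermediate levels thus holds for points only, since less can be gained from a high start. At 20 to 50% the mean level was 33.2% ± 3.04 in WT and 43.8% ± 3.85 in knockin (SD, n = 3 each). Density still separated the windows there: the difference was 11.8 points with under 20 listed CpGs, 9.87 at 20 to 39, 7.46 at 40 to 59 and 4.05 in dense windows. The difference in dense less that in the sparsest windows was -7.77 points at a start of 20 to 50%, -3.66 at 5 to 20% and -0.809 under 5% (exact permutation p = 0.1 each, adjusted 0.129). At 50 to 80% it was -4.39 points, with libraries that overlapped (exact permutation p = 0.3), and at 80% or more it was 0.304 points (p = 1 by the same exact test). Only 28 and 43 dense windows started at those levels.

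**Figure D3:**
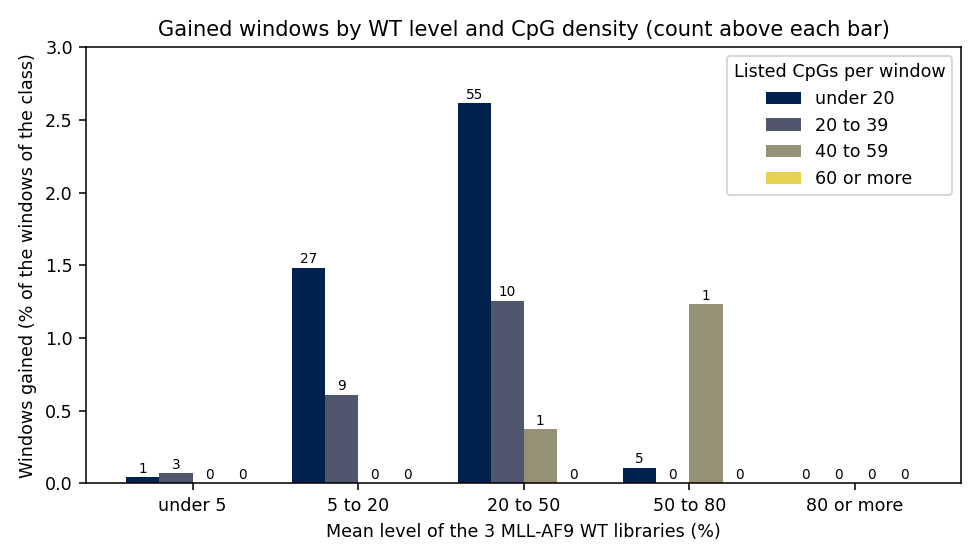
Share of windows gained, in percent of the windows of each class (bars from 0), by the mean level of the 3 MLL-AF9 WT libraries and by listed CpGs per window (colours), with the number of gained windows above each bar. The highest bar is 2.62%, at a WT level of 20 to 50% with under 20 listed CpGs. The 1.23% bar at 50 to 80% is 1 of 81 windows.

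Gained windows were spread over 18 of the 19 autosomes. Chromosome 12 had the highest share, 9 of 2027 windows (0.444%), and chromosome 18 the lowest, 0 of 1410. Chromosome 16 had 1 gained window, and chromosomes 6 and 11 had 2 and 9 (0.0891% and 0.234%). The mean difference was much more even, from 3.18 points on chromosome 18 to 4.24 points on chromosome 11, with every knockin library above every WT library on each autosome (exact permutation p = 0.1 each, adjusted 0.106). Counts this small per chromosome were not compared by a test.

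Gene names were attached to windows through RefSeq promoters placed on mm9 by CpG spacing, so a nearer gene whose promoter was not placed may exist, and whether a window is exonic or intronic was not analysed here. Only 3 gained windows lay under 1 kb from a placed start (0.0249% of 12041 windows there), against 19 at 1 to 5 kb (0.630% of 3014). There were 27 at 5 to 20 kb (0.404%), 19 at 20 to 50 kb (0.265%) and 44 at 50 kb or more (0.246%). The mean difference was 1.35 points under 1 kb, from a WT level of 5.26%, and 5.60 points at 1 to 5 kb, from 43.6%. Of the 22 windows under 5 kb, 16 lay after the start. The share of all tested windows that did so was not counted, so this is not read as a trait of gained windows. The 22 windows are named here by that distance, a choice made after their values were seen.

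The window with the most CpGs lay 0.201 kb after the start of Pnma1, at chr12:85489048-85489428. Its 28 CpGs stood at 57.9%, 45.3% and 44.9% in WT and 97.4%, 88.9% and 84.3% in knockin, on 501 to 1179 reads. The next lay 0.250 kb after the start of the ciliary gene Cfap221, at chr1:121893345-121893773, with 17.6%, 16.2% and 19.1% in WT and 57.7%, 47.1% and 52.3% in knockin. At chr12:112998179-112998255, 1.14 kb after the start of the kinesin light chain gene Klc1 and 1 kb from a dense window, WT stood at 10.9%, 13.5% and 5.71% and knockin at 64.6%, 67.6% and 57.6%. Among these windows the replicates were tightest at chr12:70400340-70400509, 2.76 kb after the start of Klhdc2, a substrate receptor of a ubiquitin ligase. WT stood there at 30.0%, 30.8% and 32.7% and knockin at 72.9%, 70.8% and 70.0%.

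Irf8, a transcription factor of monocyte and dendritic cell development, had a gained window 3.45 kb after its start, at chr8:123263565-123263846. Its 12 CpGs stood at 43.1%, 13.2% and 17.4% in WT and 72.5%, 80.8% and 71.4% in knockin, on 235 to 510 reads. WT replicate 1 was well above the other 2 WT libraries, and the window was not among the fit's calls. Nab2, a corepressor of Egr transcription factors, had one 4.99 kb after its start, at 49.4%, 41.3% and 43.5% in WT and 83.0%, 91.0% and 83.1% in knockin. Celf5, an RNA-binding protein, had one 1.63 kb before its start, at 24.3%, 31.2% and 31.7% in WT and 70.5%, 81.5% and 78.7% in knockin. The Celf5 window was among the fit's calls. Pwp2, which acts in ribosomal RNA processing, stood at 26.5%, 29.9% and 38.9% in WT and 84.4%, 76.6% and 73.5% in knockin, 2.62 kb after its start. Rrp36, of the same process, stood at 6.32%, 23.5% and 35.6% in WT and 88.5%, 83.0% and 67.1% in knockin, 1.69 kb after its start. The libraries of Rrp36 spread widely within both groups without meeting.

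Itpk1, an inositol phosphate kinase, had one 3.33 kb before its start, at 54.8%, 50% and 47.1% in WT and 87.8%, 92.2% and 95.3% in knockin. Ckb, the brain-type creatine kinase, had one 2.79 kb after its start, at 11.96%, 5.97% and 4.49% in WT and 39.8%, 50.7% and 48.2% in knockin. Ndst2, an enzyme of heparan sulfate synthesis, had one 2.82 kb before its start, at 14.2%, 13.9% and 9.68% in WT and 58.1%, 57.8% and 43.2% in knockin. Tbcb, a tubulin folding cofactor, and the kinase-like gene Ulk4 had windows 3.67 and 4.89 kb after their starts, with means of 26.0% and 22.4% in WT and 76.7% and 68.5% in knockin. The windows nearest to Aif1l and to the mitochondrial exonuclease gene Mgme1 differed by 35.0 and 38.5 points, but by only 2.13 and 1.94 points in 2000-bp windows, where neighbouring CpGs are added. The other windows, near Arl10, Rell1, Gm46646, LOC115486128 and 6330418K02Rik, had WT means of 7.31 to 33.0% and knockin means of 60.7 to 81.4%.

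**Figure D4:**
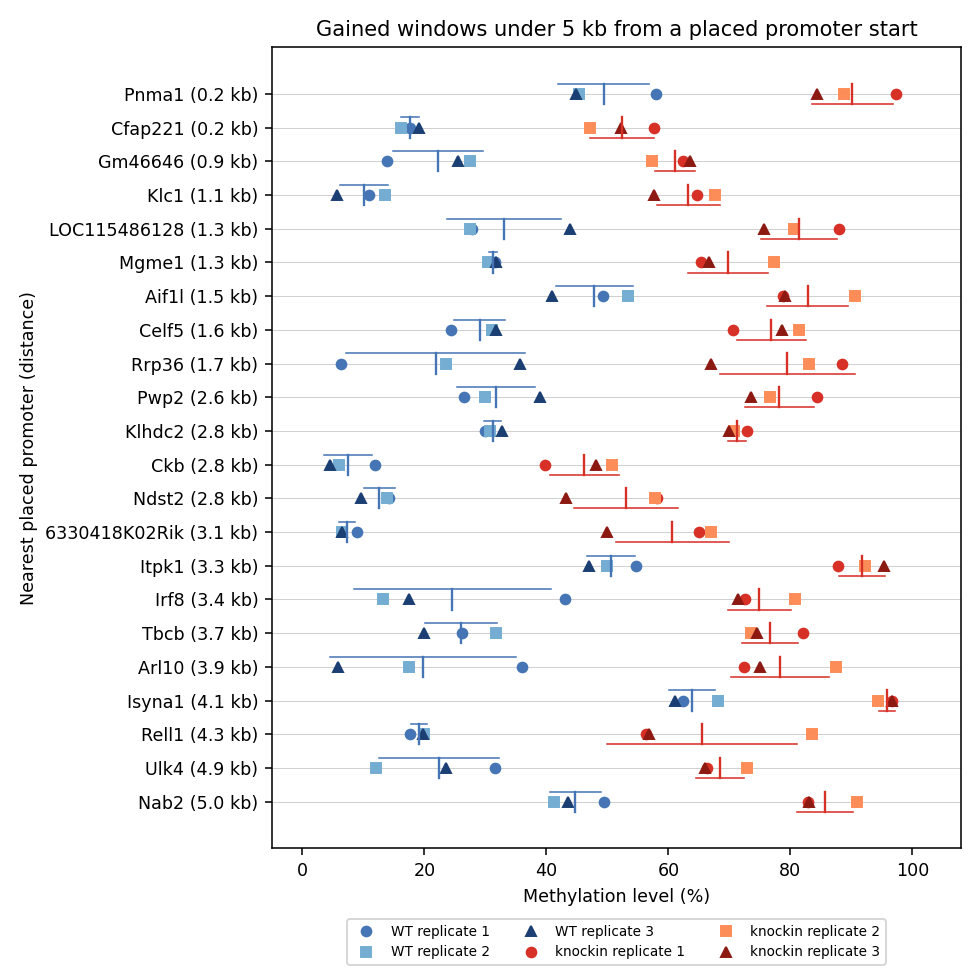
Methylation level in percent of the 22 gained windows under 5 kb from a placed promoter start, 1 row per window in order of distance, with a symbol per library, a vertical tick at each group mean and a horizontal line of 1 SD each way (blue WT, red knockin, n = 3 each). The groups are apart in every row by the rule of choice, and Rrp36, Irf8 and Arl10 have the widest WT spread, with SDs of 14.7, 16.2 and 15.2 points.

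Promoters themselves stayed mostly unmethylated. With 3 or more tested CpGs in the 300 bases from 250 before to 50 after the start, 7800 promoters of 6963 genes could be compared. Their mean level was 3.56%, 3.99% and 3.49% in WT and 4.93%, 4.73% and 4.06% in knockin, a difference of 0.891 points (exact permutation p = 0.1), or 0.704 points without knockin replicate 1. In 6589 of them (84.5%) every WT library was under 5%. The groups did not overlap in 1026 promoters with knockin higher (13.2%) and 133 with knockin lower (1.71%). With 10 or more points between the nearest libraries, 18 promoters of 17 genes were gained (0.231%) and 2 were lost (0.0256%). The gained promoters held a median of 18.5 CpGs in their 300 bases, against 27 over all tested promoters. Leaving out a library again raised the count, to between 22 and 62, and it was 27 without knockin replicate 1. With 20 reads per CpG it was 5. The rule and the list were set after the data were seen, and the differences below are descriptions.

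Pnma1 had the widest gap, with 58.5%, 45.6% and 38.3% in WT and 100%, 94.6% and 87.3% in knockin. The sequence printed above for it holds none of the tested CpGs. Its promoter shares CpGs with the Pnma1 window. Crb2, a membrane protein of epithelial polarity, stood at 48.3%, 47.0% and 37.9% in WT and 82.5%, 83.3% and 72.8% in knockin. Fgf22 stood at 26.3%, 38.5% and 7.34% in WT and 94.8%, 68.9% and 62.9% in knockin. Gnmt, an enzyme that consumes the methyl donor S-adenosylmethionine, stood at 25.3%, 31.4% and 22.7% in WT and 100%, 49.6% and 83.0% in knockin. In both, the knockin libraries differed widely among themselves. 4 gained promoters had every WT library under 5%. Col5a3 stood at 1.99%, 4.11% and 1.91% in WT and 19.04%, 21.9% and 18.98% in knockin, the tightest knockin values of the set, though the difference of 17.3 points was 26.1 points with 20 reads per CpG. Sh3d21 stood at 2.07%, 3.56% and 2.5% in WT and 44.4%, 28.6% and 17.8% in knockin. Sprn, which encodes the prion-like protein Shadoo, stood at 4.05%, 3.77% and 3.28% in WT and 21.8%, 33.6% and 24.6% in knockin. Mmp25, a membrane-bound matrix metalloproteinase of leukocytes, stood at 1.34%, 2.22% and 2.48% in WT and 19.3%, 14.1% and 13.3% in knockin.

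Another matrix metalloproteinase, Mmp23, was gained at 2 overlapping starts. At the first it stood at 30.6%, 20.4% and 9.39% in WT and 81.7%, 78.2% and 46.1% in knockin. Hoxa6, a homeobox gene of the HoxA cluster, stood at 40.0%, 35.4% and 10.2% in WT and 97.7%, 52.0% and 51.8% in knockin, a difference of 38.7 points that was 23.4 points without knockin replicate 1. B4galt2, a galactosyltransferase, stood at 7.30%, 3.35% and 0% in WT and 41.2%, 65.6% and 20.7% in knockin. Speg, a kinase of striated muscle, stood at 9.80%, 14.8% and 8.57% in WT and 47.6%, 51.7% and 30.0% in knockin. Zmynd8, a reader of histone marks, stood at 7.5%, 6.90% and 8.57% in WT and 32.9%, 22.2% and 23.2% in knockin. The gains of Mpped1, the receptor-associated gene Shisa7, the axon guidance gene Ntn3 and the uncharacterised Gm36263 were 25.1, 21.6, 17.99 and 28.2 points. Without WT replicate 3 those of Mpped1 and Gm36263 were 14.4 and 18.6 points. Some gained promoters rest on few tested CpGs, with 3 each in Crb2, Gnmt and Gm36263 and 7 of 59 in Mpped1. The shallowest library held 29 reads at Crb2, 50 at Gnmt and 25 at Gm36263. The 2 lost promoters were those of Caln1, a calcium-binding protein, at 80.8%, 70.9% and 73.3% in WT and 57.4%, 54.2% and 45.3% in knockin, and of Gm46430, at 52.1%, 68.8% and 37.0% in WT and 14.0%, 1.14% and 22.5% in knockin.

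**Figure D5:**
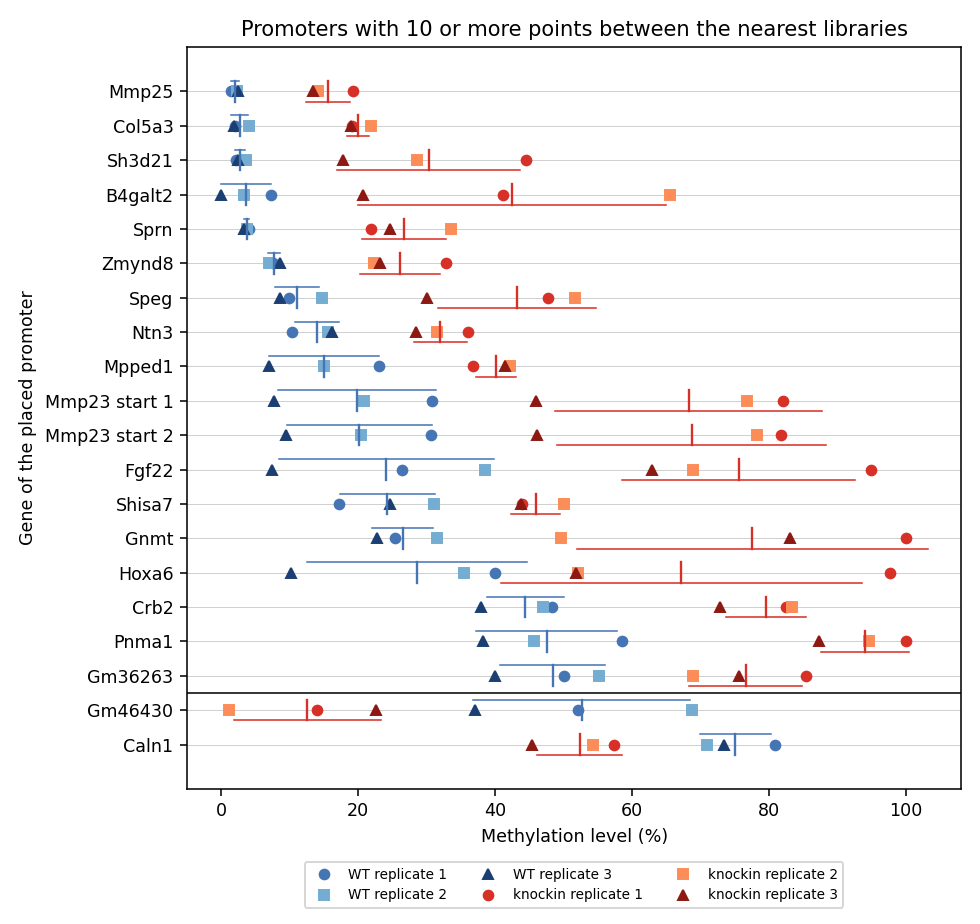
Methylation level in percent of the 18 gained promoters (above the line, ordered by WT mean) and the 2 lost promoters (below it), with a symbol per library, a vertical tick at each group mean and a horizontal line of 1 SD each way (blue WT, red knockin, n = 3 each). The knockin spread is widest at Hoxa6, Gnmt and B4galt2, with SDs of 26.4, 25.6 and 22.5 points, and narrowest at Col5a3, with 1.65 points.

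The same windows were then read in the cMyc-Bcl2 leukaemias, whose libraries had no part in choosing them. Of the 112 gained windows 93 could be tested there. Their level was 54.8% and 57.9% in WT and 67.1% and 65.0% in knockin, a difference of 9.68 points (exact permutation p = 0.3333, the smallest that 2 against 2 can give). Over the 43971 windows tested in both models the difference was 3.19 points. Both knockin libraries exceeded both WT libraries in 34 of the 93 windows (36.6%), against 25% of all windows tested in both models, and lay below both in 7 (7.53%, against 18.1%). The means were 25 or more points higher in knockin in 23 windows (24.7%, against 4.97%). Their cMyc-Bcl2 WT level, 56.4%, was above the 25.03 to 28.3% of the MLL-AF9 WT libraries over the 112 windows, which the rule chose to be low. Of all windows tested in both models, 14535 had a cMyc-Bcl2 WT level under 5% and 16193 one of 80% or more. From 80% a rise of 25 points cannot be reached. No background of like start level was drawn, so the part of start level in these shares and differences was not tested. Of the 18 gained promoters, 12 had both cMyc-Bcl2 knockin libraries above both WT libraries, against 17.8% of 7673 promoters. The 12 include both overlapping starts of Mmp23. The start levels differ: every MLL-AF9 WT library was under 5% in 84.5% of tested promoters, but in only 4 of the 18 gained. The cMyc-Bcl2 groups overlapped at Crb2, Fgf22, Speg, B4galt2 and Shisa7, and knockin was lower at Zmynd8. The promoter of Sprn stood at 15.6% and 8.14% in cMyc-Bcl2 WT and 56.9% and 68.4% in knockin, that of Mpped1 at 17.4% and 29.5% and 68.2% and 78.6%, and that of Col5a3 at 3.52% and 2.14% and 15.8% and 32.9%. The Irf8 window was already methylated in that model, at 95.1% in WT and 93.3% in knockin.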

How the data were processed

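The submitters' processing notes name Bismark 0.7.4, Trim Galore 0.2.2, methylKit and CASAVA, and the build mm9. Their options are not given in the sources used. The deposited files list, per cytosine, a pair of other whole-number values, read as methylated then unmethylated reads, since mitochondrial CpGs then come out nearly unmethylated. Each chromosome holds 2 sorted blocks, the second 1 bp further along, taken as the 2 strands of a CpG and joined. No molecular identifiers are given, so depth covers counting error only.

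Reads were summed per window and tested with a quasi-binomial logistic model whose dispersion was moderated (squeezeVar, limma 3.58.1, R 4.3.3) and kept no lower than 1, an F-test and Benjamini-Hochberg adjustment over all windows. The fit was also run on simulated counts, with the median dispersion of 1.71 in every window. The real spread varies between windows, so that run cannot tell how often the calls here are false. Group means were tested by exact two-sided permutation. The rest used Python 3.11.15, numpy 2.4.6, pandas 2.3.3 and scipy 1.17.1. Windows were named by fixed rules: the 10 widest gaps, the 5 widest losses, the 3 with most listed CpGs, the 3 farthest from a dense window, runs, up to 5 fit calls each way, and 2 windows each side of the threshold.

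No mm9 annotation was used. After the files were seen, RefSeq promoters of GRCm38.p6 were placed on mm9 where at least 8 CpGs matched the listed positions in spacing, at 1 place on the chromosome. That placed 11578 promoters, and 29 of the same sequences when mirrored as a control. Only the 11572 promoters in the order of the gene table, of 10141 genes, were kept. Promoters of chromosome 18 were not used here. The members and lists were chosen with earlier results of these data known. Alternatives were other coverage, window, CpG and gap limits, other level and density definitions, equal depth, limma on M-values with 0.5 added, leaving out chromosomes 6 and 11 or each library, and, added after seeing the data, strands kept apart and the promoter results under these settings.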

Additional observations from a re-analysis of the deposited data

Results flagged for a closer look

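Of the 93 gained windows of MLL-AF9 tested in both models, 7 (7.53%) had both cMyc-Bcl2 knockin libraries below both cMyc-Bcl2 WT libraries. That is a smaller share than the 18.1% of all windows tested in both models. The 7 windows include 4 of those described by name, and 1 gained promoter did the same. The knockin difference had opposite signs in the 2 models there. The cMyc-Bcl2 knockin minus WT difference was -15.7 points at chr8:73340803, the window with the widest gap in MLL-AF9, and -24.2 points at chr2:69509044 near Bbs5. It was -21.0 points at chr10:80937581 before Celf5, -20.3 points at chr17:46809514 after Rrp36 and -4.98 points at the promoter of Zmynd8. In the lost window at chr4:9801627 it was 34.1 points, higher in both knockin libraries. The difference between the models was not tested in any of these.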

How the results depend on the processing

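All 243 recomputed differences of class and overall means kept their direction over the 24 alternatives, between 1.53 and 4.39 points for all windows, -4.26 and -3.23 for dense less sparse, and 0.497 and 1.14 for promoters. Of 845 recomputed values of the 43 named windows and 20 named promoters, 29 moved by over 1 SD and 0 reversed. Most of these were chosen for a wide gap between the groups in the same reads. That none reversed therefore follows largely from the choice and is no separate support. Counts moved by over 1.5 times as follows. Gained and lost separated windows numbered 63 and 1 with 10 reads per CpG, 11 and 1 with 20 reads, 42 and 1 with 5 CpGs per window, 922 and 14 with means 25 points apart, and 918 and 15 with a gap of 10 points. Losses numbered 1 at equal depth and 1 without chromosomes 6 and 11. Leaving out 1 library gave 152 to 305 gains and 2 to 9 losses, since a rule over fewer libraries is easier to meet. The fit called 6 gains with 10 reads, 0 gains and 0 losses with 20 reads, at equal depth and by limma on M-values, 32 gains in 2000-bp windows, and 0 losses without chromosomes 6 and 11. Leaving out 1 library gave 0 to 1 gains and 0 losses. Promoters numbered 11 gains with 10 reads and 5 gains and 0 losses with 20 reads, and 22 to 62 gains and 4 to 8 losses without 1 library. A stricter coverage minimum leaves fewer CpGs to test; beyond such effects of construction the cause was not tested. No paired analysis was possible because the labels give no replicate numbers that the groups share. The shallowest library of a tested window had a median of 65 reads, and the fit's median dispersion was 1.71, above the 1 of counting error alone; their parts in the fit's precision were not tested apart.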
